A study of Homo sapiens with 12 samples.

Results

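The 10 genes described here encode enzymes that make serine, proline, asparagine and cysteine or that pass serine carbon into the folate cycle. They are PHGDH, PSAT1 and PSPH (serine), SHMT2 and MTHFD2 (mitochondrial folate), ALDH18A1 and PYCR1 (proline), ASNS (asparagine), and CBS and CTH (transsulfuration). The list was chosen by pathway, with an earlier result of these data known, namely lower values of amino acid stress genes in RS4:11 cells at the higher dose. Each gene is represented by the probe set with its highest mean on the 12 arrays, selected from 21 probe sets that carry 1 of these symbols alone. The 10 genes are 10 of 19775 genes on the array and 10 of the 10561 genes that passed the filter on low values, which asked for a log2 value above 4 on at least 2 arrays. All 10 passed, CBS only through SEM-K2 arrays.

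Total RNA of cultured SEM-K2 and RS4:11 cells was measured on Affymetrix U133 Plus 2 arrays after 6 h. Both lines are B-lineage acute lymphoblastic leukaemia lines carrying the MLL-AF4 fusion (now written KMT2A-AFF1). The 6 groups, of 2 arrays each, were SEM-K2 with 3xEC50 obatoclax, SEM-K2 with EC50 obatoclax, SEM-K2 with vehicle, RS4:11 with 3xEC50 obatoclax, RS4:11 with EC50 obatoclax and RS4:11 with vehicle. Obatoclax is a small molecule that binds the BH3 groove of anti-apoptotic BCL-2 family proteins. The EC50 was that of a 72 h exposure, concentrations are not given in the sources used here, and an equal multiple of the EC50 need not be an equal concentration in both lines. Each genetic background is 1 established line, so a difference between the lines is a difference between these 2 cultures.

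De novo serine synthesis runs from a glycolytic intermediate through PHGDH, PSAT1 and PSPH, and SHMT2 and MTHFD2 then carry the serine carbon into mitochondrial one-carbon units for purine and thymidylate synthesis. ALDH18A1 and PYCR1 catalyse the first and last steps from glutamate to proline, and ASNS amidates aspartate to asparagine. Most of these genes are known targets of ATF4, the transcription factor whose translation increases when eIF2 alpha is phosphorylated in amino acid shortage or other stress. Low ASNS activity in lymphoblasts is the textbook basis for treating this leukaemia with asparaginase.

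ATF4 binds a composite CEBP-ATF site whose core is TGATGNAA, and MYC, another known regulator of these enzymes, binds the E-box CACGTG. Both strings were searched on both strands of the RefSeq promoter windows of GRCh38.p14, each 300 bases long with 250 bases before a gene's start and 50 from it. Windows were held for 7 of the 10 genes (10 windows, as ASNS and CBS have several). TGATGNAA stood in the ASNS window, 68 to 61 bases before the start, and 3.62% of all 35116 windows hold it. CACGTG stood in the ALDH18A1 window, 136 to 131 bases before the start, and 7.26% of all windows hold it. These 2 stretches are shown for their matches, and the PSAT1 stretch for the largest change among the 10 genes, with 100 bases each, 5′ to 3′ on the gene's strand and the matched letters in capitals.
ASNS, chr7:97872409-97872508, minus strand: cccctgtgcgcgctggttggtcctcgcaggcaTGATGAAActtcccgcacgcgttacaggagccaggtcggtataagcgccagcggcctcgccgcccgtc
ALDH18A1, chr10:95656792-95656891, minus strand: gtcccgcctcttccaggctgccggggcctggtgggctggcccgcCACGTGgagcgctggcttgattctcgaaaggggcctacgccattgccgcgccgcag
PSAT1, chr9:78297025-78297124, plus strand: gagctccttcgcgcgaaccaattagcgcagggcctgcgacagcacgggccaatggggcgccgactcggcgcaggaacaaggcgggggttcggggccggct
A match is a string in the window and was not measured as a bound site.

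The deposited arrays were close in overall level, which GCRMA brings about by quantile normalisation, so this is no check of the arrays. Their medians over all probe sets were 3.13 to 3.16 (log2), and 41.7% to 42.8% of probe sets exceeded the floor of 4. A single array stood apart in RNA quality: on SEM-K2 3xEC50 replicate 2 the 3′ ACTB probe set exceeded the 5′ one by 1.97 (log2), against 0.87 to 1.23 on the other 11 arrays, and for GAPDH by 0.61 against 0.08 to 0.30. For the enzymes and the named pathway genes, the SEM-K2 3xEC50 change is therefore also given without that array where its sign turned or its size moved by more than 1.5 times. Of the B-precursor markers, 6 of 7 measured were above the floor on all 12 arrays, as were 2 of 2 KMT2A-fusion targets measured. All 5 myeloid markers were below the floor on all 12 arrays, as was the 1 erythroid marker measured. Of the T and NK markers 4 of 5 were below the floor throughout and NKG7 was above it. With vehicle, the B-precursor markers CD79B (-2.89), DNTT (-5.13) and VPREB1 (-3.15) and the marker NKG7 (-1.79) were called lower in SEM-K2 than in RS4:11 (log2 differences). Their adjusted p-values in limma were 0.00183, 9.85e-04, 1.32e-04 and 0.0464, in that order. DNTT ranged from 2.95, under the floor, to 10.07 over the 12 arrays. Its difference is therefore a fitted value, and nothing is read from its call. COL1A1 and KRT8 were above the floor among 5 fibroblast and epithelial markers. RNA came from whole cultures, so fewer cells with a transcript and less transcript per cell cannot be told apart.

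In RS4:11 cells 7 of the 10 enzymes read lower at 3xEC50 than with vehicle, led by PSAT1 and PYCR1, though none passed the test, and the serine enzyme PSPH was at 0.01 with overlapping arrays. These 7 of the 10 genes had both treated arrays below both vehicle arrays: PHGDH, PSAT1, SHMT2, MTHFD2, PYCR1, ALDH18A1 and ASNS. Of all genes tested, 15.9% had this arrangement. The median log2 change of the 10 was -0.40, against 0.02 over all genes tested. None of the 10 passed an adjusted p of 0.05 in limma, where 0% of all genes passed, while 5 of the 10, and 518 of all 10561 genes, had an unadjusted p under 0.05. Since these lower values were known when the list was drawn up, these values describe it and are no independent evidence of its direction.

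At the EC50 in RS4:11 cells, 9 of the 10 genes were below 0, 6 of them with both treated arrays below both vehicle arrays. That arrangement held for 12.9% of all genes. The median change was -0.33, against 0.02 over all genes. Again none passed in limma, out of 0% of all genes, with 3 of the 10 and 444 of all genes at an unadjusted p under 0.05. The EC50 and 3xEC50 comparisons share the same 2 vehicle arrays.

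In SEM-K2 cells the estimates had both signs, with PSAT1, PSPH, PYCR1, ALDH18A1 and CBS lower on both 3xEC50 arrays than on both vehicle arrays. At 3xEC50, 7 of the 10 were below 0, these 5 among them, and 14.0% of all genes had that arrangement. The median change was -0.29, against 0.06 over all genes. None of the 10 was called in limma, while 0.824% of all genes (87) were, and 2 of the 10 and 1233 of all genes had an unadjusted p under 0.05. Without CBS, whose passing the filter favoured a fall, 6 of 9 were below 0, with a median of -0.25. Of these 9, 1 had an unadjusted p under 0.05. At the EC50, 4 of the 10 were below 0, and PYCR1 alone had both arrays below both vehicle arrays, as 11.8% of all genes had. That count was 7 without SEM-K2 vehicle replicate 2 and 7 with every array centred on its median, 6 without SEM-K2 EC50 replicate 2, and 1 of 7 genes without _x_at and _s_at probe sets. PSPH and CTH had both EC50 arrays above both vehicle arrays, PSPH by a narrow margin, at 8.98 against 8.97. The share of all genes with arrays so placed was not computed, so no rise is read from this. The median at the EC50 was 0.04, against 0.05 over all genes, and turned to -0.03 with every array centred on its median. No gene of the 10 was called in limma at the SEM-K2 EC50, against 0.17% of all genes (18), and none of the 10 had an unadjusted p under 0.05, against 578 of all genes.

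**Figure D1:**
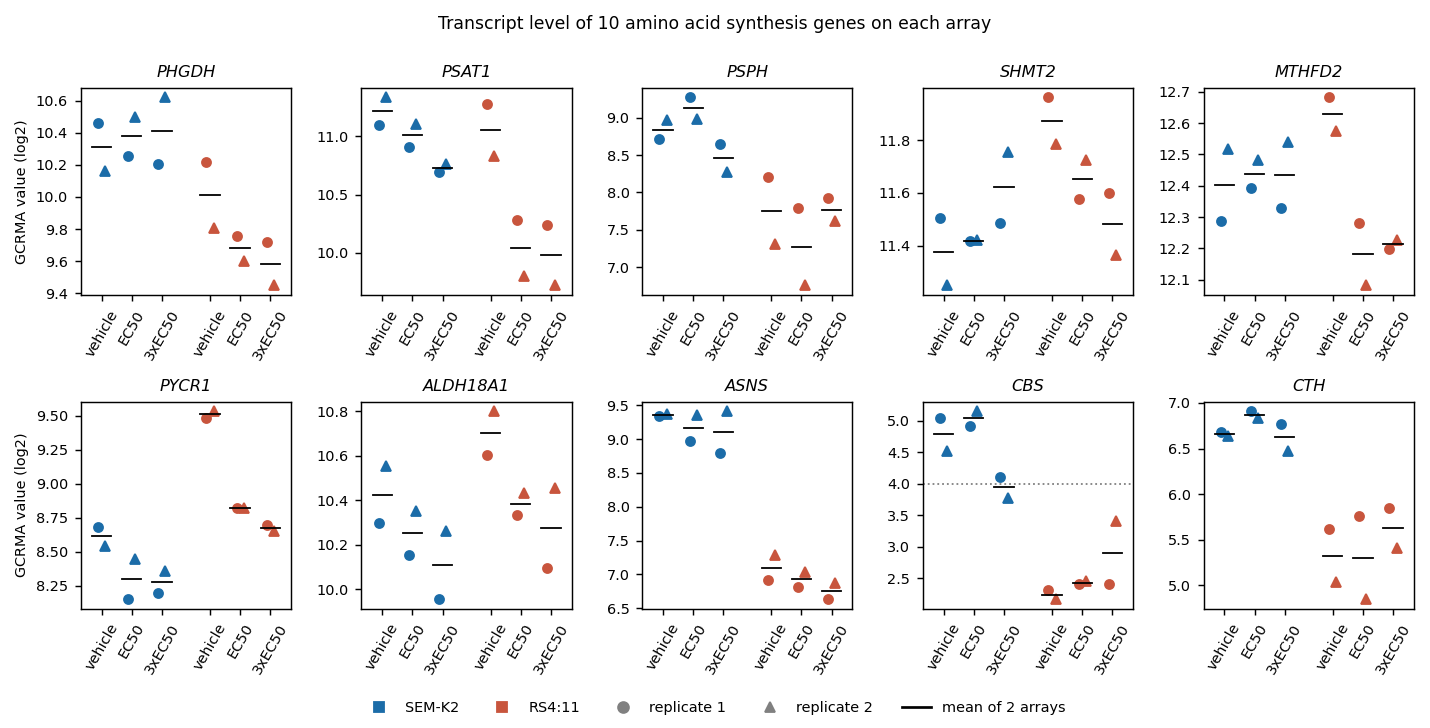
GCRMA values (log2) of the 10 genes on each of the 12 arrays, with SEM-K2 in blue and RS4:11 in red, circles for replicate 1, triangles for replicate 2 and bars for the mean of 2 arrays. The dotted line in the CBS panel is the floor of 4. In RS4:11 the PSAT1 values at EC50 and 3xEC50 lie between 9.72 and 10.28, below the vehicle values of 10.83 and 11.28.

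PSAT1, the aminotransferase at the second step of serine synthesis (223062_s_at), had the largest decrease. In SEM-K2 it read 11.10 and 11.34 with vehicle, 10.91 and 11.11 at EC50, and 10.70 and 10.76 at 3xEC50. In RS4:11 it read 11.28 and 10.83 with vehicle, 10.28 and 9.80 at EC50, and 10.24 and 9.72 at 3xEC50. The treated and vehicle arrays overlapped in SEM-K2 at EC50 and did not overlap in SEM-K2 at 3xEC50 or in RS4:11 at either dose. The SEM-K2 change at 3xEC50 was -0.49 ± 0.24 (SE, n = 2 arrays a group, adjusted p = 0.483 in limma), a level 71.3% of vehicle. In RS4:11 the 3xEC50 level was 47.5% of vehicle, a log2 change of -1.07 ± 0.24 (adjusted p = 0.423), and the EC50 change was -1.01 ± 0.24 (adjusted p = 0.674). The other PSAT1 probe set gave -0.48 in SEM-K2 and -0.85 in RS4:11 at 3xEC50.

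PHGDH, the dehydrogenase at the first and committed step of serine synthesis (201397_at), showed no separation of the groups in SEM-K2 and was lower with obatoclax in RS4:11. In SEM-K2 it read 10.46 and 10.16 with vehicle, 10.26 and 10.50 at EC50, and 10.21 and 10.62 at 3xEC50. The RS4:11 values were 10.22 and 9.81 with vehicle, 9.76 and 9.60 at EC50, and 9.72 and 9.45 at 3xEC50. SEM-K2 arrays overlapped, and RS4:11 arrays separated by a small margin, with replicate 2 of the vehicle group 0.41 below replicate 1. The SEM-K2 change at 3xEC50 was 0.10 (95% interval -0.38 to 0.59), which became -0.11 without SEM-K2 3xEC50 replicate 2, and the RS4:11 change was -0.43 (-0.91 to 0.06). A brighter probe set listed for PHGDH names 3 genes and was not used.

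PSPH, the phosphatase that completes serine synthesis (205194_at), was uneven between replicates and between probe sets. In SEM-K2 it read 8.71 and 8.97 with vehicle, 9.28 and 8.98 at EC50, and 8.65 and 8.28 at 3xEC50, with the higher-dose arrays below the vehicle arrays. In RS4:11 it read 8.21 and 7.30 with vehicle, 7.80 and 6.75 at EC50, and 7.92 and 7.61 at 3xEC50, so the groups overlapped. The change at 3xEC50 was -0.38 in SEM-K2 (-0.19 without SEM-K2 3xEC50 replicate 2) and 0.01 in RS4:11, each with SE 0.37. Another PSPH probe set (205048_s_at) gave -1.22 in SEM-K2 and -0.76 in RS4:11. In SEM-K2 at 3xEC50 that probe set read 7.999 on replicate 1 and 5.94 on replicate 2, the array with the high ACTB difference, and the part of RNA quality in this was not tested.

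**Figure D2:**
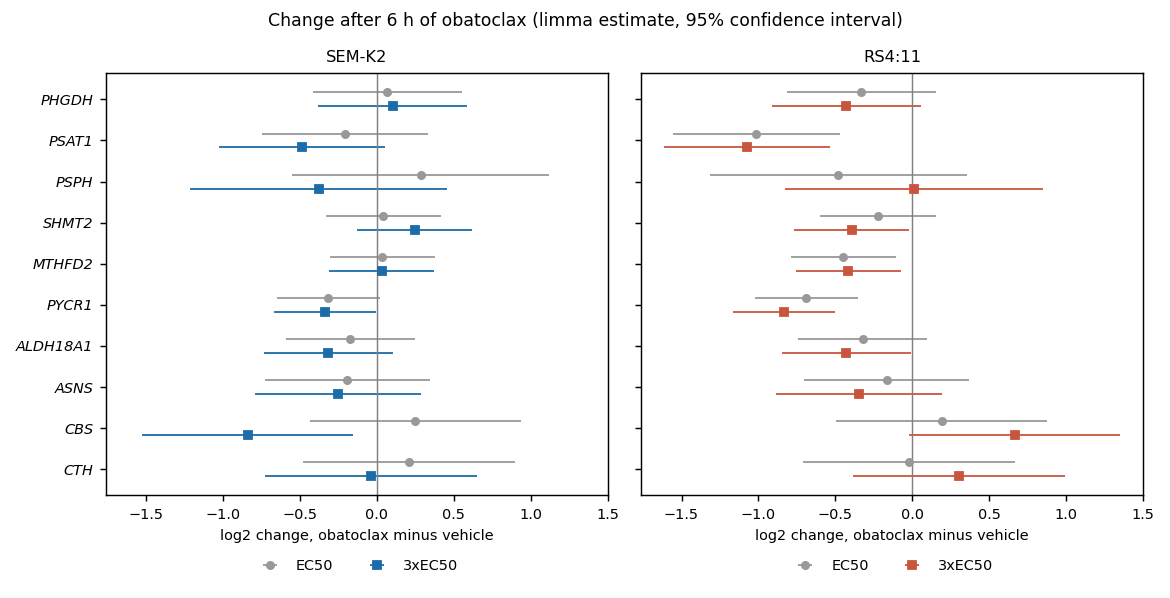
Log2 change (obatoclax minus vehicle, limma estimate with 95% confidence interval) of the 10 genes at EC50 (grey circles) and 3xEC50 (coloured squares), SEM-K2 on the left and RS4:11 on the right. PSAT1 at -1.07 and PYCR1 at -0.83 lie farthest left in RS4:11 at 3xEC50, while the lowest SEM-K2 estimate is CBS at -0.84, whose 3xEC50 mean is under the floor. CBS in RS4:11 was below the floor in every group.

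SHMT2, the mitochondrial serine hydroxymethyltransferase that splits serine into glycine and a one-carbon unit (214096_s_at), had an estimate above 0 in SEM-K2 and below 0 in RS4:11 at 3xEC50. SEM-K2 arrays read 11.50 and 11.25 with vehicle, 11.42 and 11.42 at EC50, and 11.49 and 11.76 at 3xEC50. RS4:11 arrays read 11.96 and 11.78 with vehicle, 11.58 and 11.73 at EC50, and 11.60 and 11.36 at 3xEC50. The treated and vehicle arrays overlapped in SEM-K2 and did not overlap in RS4:11. At 3xEC50 the changes were 0.25 ± 0.17 in SEM-K2 and -0.39 ± 0.17 in RS4:11 (SE, n = 2 arrays a group, adjusted p = 0.629 and 0.974 in limma). Without SEM-K2 3xEC50 replicate 2 the SEM-K2 change was 0.11. Other SHMT2 probe sets gave -0.26 and -0.14 in SEM-K2, against the 0.25 of the brightest, and -0.42 and -0.60 in RS4:11.

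MTHFD2, the mitochondrial folate dehydrogenase and cyclohydrolase (201761_at), is a gene low in most adult tissues and high in dividing cells. In SEM-K2 it read 12.29 and 12.52 with vehicle, 12.39 and 12.48 at EC50, and 12.33 and 12.54 at 3xEC50. It read 12.68 and 12.57 with vehicle, 12.28 and 12.08 at EC50, and 12.20 and 12.23 at 3xEC50 in RS4:11. The SEM-K2 groups overlapped, and all 4 treated RS4:11 arrays lay below both vehicle arrays. In SEM-K2 both changes were 0.03, and the 3xEC50 change was -0.08 without SEM-K2 3xEC50 replicate 2. The RS4:11 changes were -0.45 ± 0.15 at EC50 and -0.42 ± 0.15 at 3xEC50 (SE), or 75.0% of the vehicle level at the higher dose.

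PYCR1, the mitochondrial reductase that makes proline (202148_s_at), had the lowest adjusted p of the 10 in RS4:11. The SEM-K2 values were 8.68 and 8.55 with vehicle, 8.15 and 8.45 at EC50, and 8.20 and 8.36 at 3xEC50. In RS4:11 it read 9.48 and 9.53 with vehicle, 8.82 and 8.82 at EC50, and 8.70 and 8.65 at 3xEC50. Treated arrays were below vehicle arrays in both lines at both doses, and replicates in RS4:11 differed by less than 0.05. The SEM-K2 changes were -0.34 at 3xEC50 and -0.32 at EC50, with adjusted p = 0.419 and 0.946 in limma. At 3xEC50 the RS4:11 change was -0.83 ± 0.15 (SE, adjusted p = 0.270 in limma, where the lowest of any gene was 0.245), a level 56.1% of vehicle. At EC50 it was -0.69 ± 0.15 (adjusted p = 0.528).

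ALDH18A1, the synthase for the first committed step from glutamate to proline (222416_at), read lower with obatoclax in both lines. SEM-K2 arrays read 10.30 and 10.55 with vehicle, 10.15 and 10.35 at EC50, and 9.95 and 10.26 at 3xEC50. RS4:11 arrays read 10.60 and 10.80 with vehicle, 10.33 and 10.43 at EC50, and 10.09 and 10.45 at 3xEC50. The groups overlapped in SEM-K2 at EC50 and in no other of these comparisons. Its changes at 3xEC50 were -0.32 (95% interval -0.74 to 0.10) in SEM-K2 and -0.43 (-0.85 to -0.01) in RS4:11.

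ASNS (205047_s_at), the asparagine synthetase, moved little with obatoclax next to its difference between the lines. In SEM-K2 it read 9.34 and 9.37 with vehicle, 8.97 and 9.36 at EC50, and 8.79 and 9.42 at 3xEC50. In RS4:11 it read 6.91 and 7.28 with vehicle, 6.82 and 7.04 at EC50, and 6.63 and 6.87 at 3xEC50. SEM-K2 replicates at 3xEC50 differed by 0.63 and lay on either side of the vehicle values, while the RS4:11 arrays at 3xEC50 lay below the vehicle arrays by a narrow margin. The change at 3xEC50 was -0.25 in SEM-K2 and -0.35 in RS4:11, each with SE 0.24. Without SEM-K2 3xEC50 replicate 2 the SEM-K2 change was -0.57, and without replicate 1 it was 0.06.

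CBS, which joins homocysteine and serine into cystathionine (1553972_a_at), was measured above the floor in SEM-K2 alone. It read 5.04 and 4.53 with vehicle, 4.92 and 5.15 at EC50, and 4.11 and 3.78 at 3xEC50 in SEM-K2. In RS4:11 it read 2.31 and 2.17 with vehicle, 2.41 and 2.45 at EC50, and 2.41 and 3.40 at 3xEC50, below the floor on all 6 arrays, so no change is given. The 3xEC50 arrays of SEM-K2 lay below the vehicle arrays, at a mean of 3.94, under the floor. The estimate for SEM-K2 at 3xEC50 was -0.84 ± 0.30 (SE, adjusted p = 0.327 in limma) against vehicle. Against EC50 it was -1.09 ± 0.30 (SE, unadjusted p = 0.0056 in limma, adjusted p = 0.9998). Both are fitted values toward a mean under the floor. CBS passed the filter with SEM-K2 vehicle and EC50 arrays above the floor, so a fall from them was favoured by its being tested. Neither p supports a decrease. The other CBS probe sets were below the floor on all arrays.

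CTH, which cleaves cystathionine to cysteine (217127_at), showed no separation by dose in RS4:11. In SEM-K2 it read 6.69 and 6.64 with vehicle, 6.91 and 6.83 at EC50, and 6.77 and 6.48 at 3xEC50. It read 5.62 and 5.03 with vehicle, 5.76 and 4.85 at EC50, and 5.85 and 5.41 at 3xEC50 in RS4:11. The 3xEC50 arrays overlapped the vehicle arrays in both lines. Its changes at 3xEC50 were -0.04 in SEM-K2 and 0.30 in RS4:11, each with SE 0.31, and the SEM-K2 change was 0.11 without SEM-K2 3xEC50 replicate 2.

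Between the doses, PSPH differed by -0.66 (95% interval -1.50 to 0.17) in SEM-K2 and by 0.49 (-0.35 to 1.33) in RS4:11. Over the alternatives the RS4:11 value ranged from -0.03 to 1.01. The SEM-K2 estimate for CBS was -1.09, toward a 3xEC50 level above the floor on 1 of 2 arrays. The median log2 change of the 10 at 3xEC50 against EC50 was -0.10 in SEM-K2 and -0.08 in RS4:11, and both comparisons had 0% of all genes called. For PSAT1 in RS4:11 the difference was -0.06 (95% interval -0.60 to 0.48) and for PYCR1 it was -0.15 (-0.48 to 0.19), intervals that still allow a further decrease of either gene. CBS alone of the 10 in SEM-K2 (234 of all genes) and none of the 10 in RS4:11 (85 of all genes) had an unadjusted p under 0.05 in limma, and none of the 10 was called in either line. That CBS p supports nothing, as a fall from the EC50 level was favoured by its passing the filter.

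The difference in response between the lines was tested directly, as the SEM-K2 change minus the RS4:11 change. At 3xEC50 it was above 0 for 7 of the 10 genes, with a median of 0.28 against 0.05 over all genes, and at EC50 for 9 of the 10, with a median of 0.32 against 0.04. Lower RS4:11 values at 3xEC50 were known when the list was drawn up, and this difference subtracts them. The EC50 difference shares their vehicle arrays. These counts and medians therefore describe the list and are no independent evidence of a difference between the lines. None of the 10 was called in limma at 3xEC50, where 0.0379% of all genes (4) were, or at EC50, where 0.00947% (1 gene) were. At 3xEC50, 3 of the 10 (SHMT2, PYCR1 and CBS) and 390 of all genes had an unadjusted p under 0.05, and at EC50 the numbers were 1 and 185. CBS was under the floor in every RS4:11 group, so its fitted difference is no measured one. Without CBS the 3xEC50 median was 0.45, with 7 of 9 genes above 0. The 3xEC50 difference was 0.64 (95% interval 0.11 to 1.17) for SHMT2, 0.59 (-0.18 to 1.35) for PSAT1, 0.53 (-0.16 to 1.22) for PHGDH and 0.50 (0.03 to 0.97) for PYCR1. It was below 0 for PSPH, at -0.39 (-1.57 to 0.79), and for CTH, at -0.34 (-1.32 to 0.63). The SHMT2 difference is that of its brightest probe set. Its other probe sets changed by -0.26 and -0.14 in SEM-K2 and by -0.42 and -0.60 in RS4:11. At EC50 the largest difference was that of PSAT1, at 0.80 (0.04 to 1.57). The lines were therefore not shown to differ in the response of any of the 10 enzymes. The intervals do not show that the lines respond alike.

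**Figure D3:**
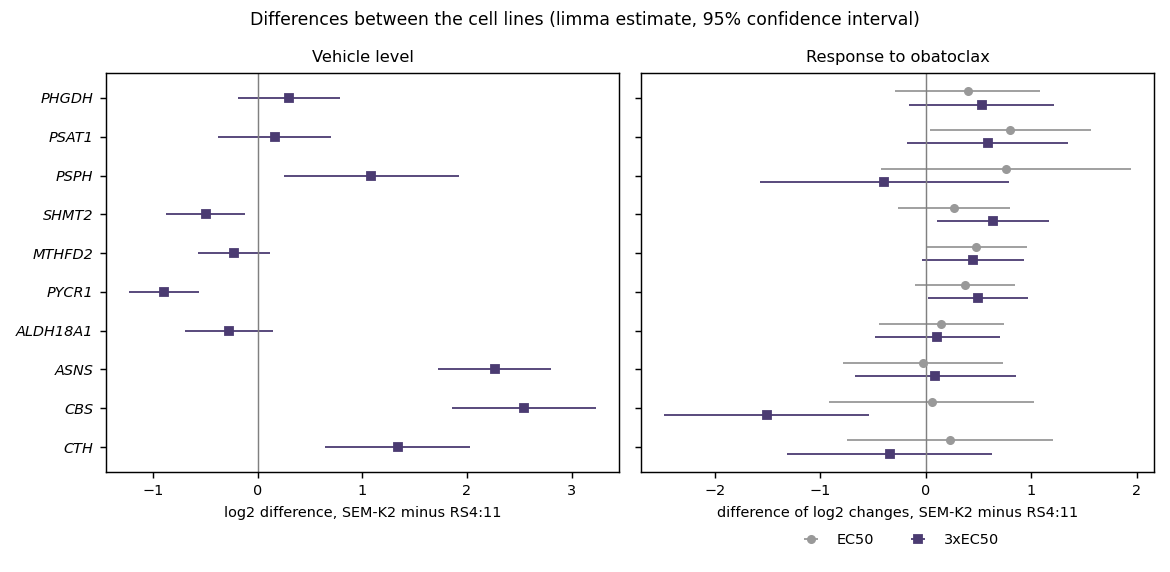
Left, log2 difference of the vehicle level of the 10 genes, SEM-K2 minus RS4:11. Right, difference of the log2 changes, SEM-K2 minus RS4:11, at EC50 (grey circles) and 3xEC50 (squares). Lines are 95% confidence intervals from limma. ASNS at 2.26 and CTH at 1.34 lie to the right in the left panel and PYCR1 at -0.89 to the left. The CBS point at 2.55 is a fitted value against an RS4:11 level under the floor, where the bound is at least 1.72-fold.

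Without obatoclax ASNS and CTH were higher and PYCR1 was lower in SEM-K2 than in RS4:11. With CBS, whose call its own filter built in, 4 of 10 genes were called in SEM-K2 vehicle against RS4:11 vehicle, and 3 of 9 without it, a comparison in which 19.6% of all genes were called, and 6 of the 10 and 3190 of all genes had an unadjusted p under 0.05. ASNS averaged 9.36 ± 0.02 in SEM-K2 and 7.09 ± 0.26 in RS4:11 (SD, n = 2 arrays each), a 4.80-fold higher level (log2 difference 2.26 ± 0.24, SE, adjusted p = 1.23e-04 in limma). All 6 SEM-K2 arrays exceeded all 6 RS4:11 arrays for ASNS, at either dose and with vehicle.

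CBS averaged 4.78 ± 0.37 in SEM-K2 and 2.24 ± 0.10 in RS4:11 (SD, n = 2 arrays each). As the RS4:11 level is under the floor, the SEM-K2 level was at least 1.72-fold higher. CBS passed the filter through its SEM-K2 arrays alone, so a difference of this sign was built into its being tested and its p supports nothing. CTH averaged 6.66 ± 0.03 in SEM-K2 and 5.33 ± 0.42 in RS4:11 (SD, n = 2 arrays each), a log2 difference of 1.34 ± 0.31 (SE, adjusted p = 0.0130 in limma). That CTH call was lost without RS4:11 vehicle replicate 2 (adjusted p = 0.0997), without either SEM-K2 vehicle array (0.0619 and 0.0580) and with no filter on low values (0.0581). PYCR1 ran the other way, at 8.62 ± 0.10 in SEM-K2 and 9.51 ± 0.03 in RS4:11 (SD, n = 2 arrays each), or 53.8% of the RS4:11 level (adjusted p = 0.00220).

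PSPH (log2 difference 1.09, adjusted p = 0.0731 in limma) and SHMT2 (-0.50, adjusted p = 0.0683) were near the threshold. With a replicate block in the fit PSPH was called (adjusted p = 0.0175 in limma, and 0.00633 with the block within each line). With 2 replicates the numbers are not taken to pair the samples. Of the 10 genes, 4 had both SEM-K2 vehicle arrays above both RS4:11 ones, 4 had both below and 2 overlapped. The share over all genes was not computed, so nothing is read from these counts. The remaining differences were 0.30 for PHGDH, 0.17 for PSAT1, -0.22 for MTHFD2 and -0.28 for ALDH18A1. PSAT1 was highest in SEM-K2 vehicle and RS4:11 vehicle and lowest in the treated RS4:11 groups. In contrast, PHGDH, PSPH, ASNS and CTH had every SEM-K2 group mean above every RS4:11 group mean. The CBS means had that order too, but those of RS4:11 and of SEM-K2 3xEC50 were under the floor. CBS passed the filter through SEM-K2 arrays alone, so nothing is read from its order. For PYCR1 every RS4:11 group mean stayed above every SEM-K2 group mean, RS4:11 3xEC50 at 8.67 and SEM-K2 vehicle at 8.62 being neighbours that differed by less than the SD of the SEM-K2 arrays.

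At 3xEC50 in SEM-K2, with CBS left aside, probe sets of the same gene differed most for PSPH and SHMT2, and in RS4:11 for PSPH. In RS4:11 at 3xEC50 the other probe sets of PSAT1, PSPH, SHMT2, MTHFD2 and ALDH18A1 were all below 0, between -0.85 and -0.36. The lower end is PSAT1 and the upper end a PSPH probe set whose mean was under the floor. The other CTH probe set (0.13, mean under the floor) and the brighter PHGDH probe set, which names 3 genes (0.03), were above 0 there. The other ASNS and CBS probe sets were below the floor on all arrays. In SEM-K2 the other MTHFD2 probe set gave -0.07, that of ALDH18A1 -0.47, that of CTH -0.32 and that of PHGDH -0.02.

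**Figure D4:**
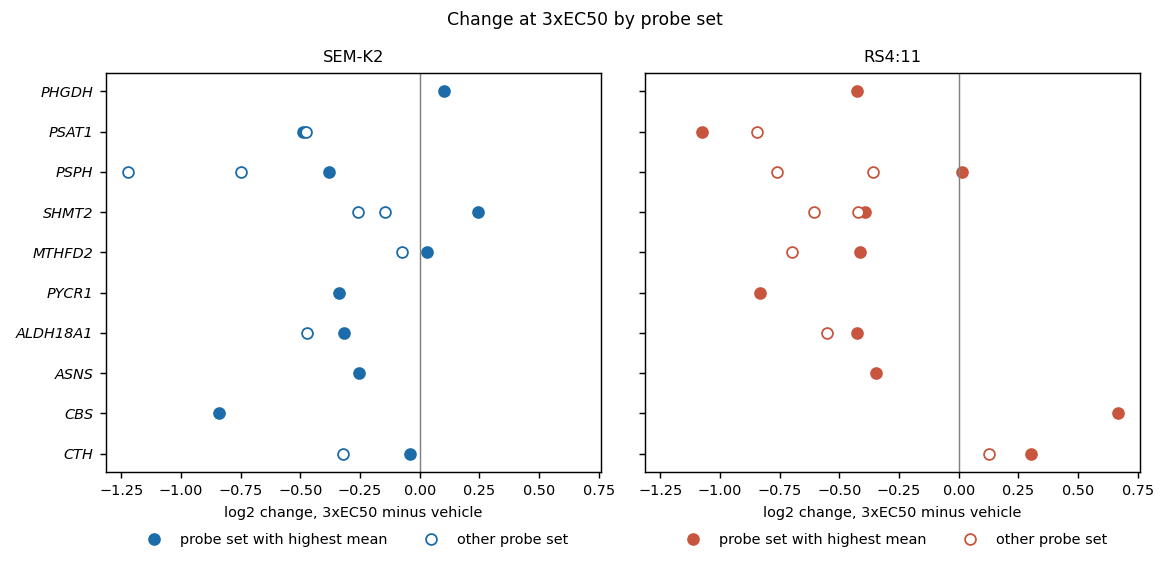
Log2 change at 3xEC50 (3xEC50 minus vehicle) for the probe set with the highest mean (filled) and every other single-symbol probe set of the gene that exceeded the floor on an array (open), SEM-K2 on the left and RS4:11 on the right. The open points for PSPH lie at -1.22 and -0.75 in SEM-K2, left of the filled point at -0.38.

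Over the 12 arrays, with each line centred on its own mean, some members moved together and others did not. Each gene's Pearson r with the mean of the other 9 was 0.82 for PSAT1, 0.72 for MTHFD2, 0.66 for PYCR1, 0.56 for PHGDH, 0.49 for ALDH18A1 and 0.44 for PSPH. It was 0.21 for ASNS, 0.14 for SHMT2, 0.12 for CTH and -0.13 for CBS. These values are descriptions over 12 arrays that share lines, doses and replicate numbers. Outside the list, the 8 genes most like the mean of the 10 were PPIL1 (r = 0.913), TRNT1 (0.901), SLC25A32 (0.900), GCSH (0.900), EIF4EBP1 (0.897), NOL7 (0.884), RWDD4 (0.880) and TRHDE (0.878). SLC25A32 carries folate into mitochondria, GCSH is the H protein of the glycine cleavage system, and EIF4EBP1 is a repressor of cap-dependent translation. None of the 8 was called at 3xEC50. EIF4EBP1 had -0.32 in SEM-K2 (-0.49 without SEM-K2 3xEC50 replicate 2) and -0.54 in RS4:11.

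Genes next to these enzymes in the pathways moved unevenly. Of 15 other serine, glycine and one-carbon genes 10 were tested, with 7 below 0 in SEM-K2 and 6 in RS4:11 at 3xEC50 (medians -0.15 and -0.16). With every array centred on its median, all 10 were below 0 in SEM-K2 and 6 in RS4:11 (medians -0.24 and -0.18). The largest were GLDC, the glycine decarboxylase, at -0.79 in SEM-K2 (-0.25 without SEM-K2 3xEC50 replicate 2), and MTHFD2L, a relative of MTHFD2, at 0.53 in RS4:11. Of 9 other proline and glutamate genes 6 were tested, with 3 below 0 in each line (medians 0.00 and -0.02). The SEM-K2 median was -0.09 with every array centred on its median (4 of 6 below 0). It was 0.15 without SEM-K2 3xEC50 replicate 2 (2 of 6 below 0). PYCR3, the cytosolic relative of PYCR1, was at -0.20 in SEM-K2 (-0.08 without SEM-K2 3xEC50 replicate 2). In RS4:11 PYCR3 was at -1.03 ± 0.17 (SE, adjusted p = 0.245 in limma, the lowest of any gene there). PEPD, a dipeptidase that releases proline, was the largest in SEM-K2, at 0.45 (0.22 without SEM-K2 3xEC50 replicate 2).

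Of 8 other aspartate and asparagine genes 6 were tested, and 2 were below 0 in SEM-K2 and 5 in RS4:11 (medians 0.08 and -0.39). With every array centred on its median, the SEM-K2 median was -0.00203. GOT1, the cytosolic aspartate aminotransferase, was the largest in RS4:11, at -0.66, and read 0.08 in SEM-K2 (-0.20 without SEM-K2 3xEC50 replicate 2). Without that array 4 of the 6 were below 0 in SEM-K2, with a median of -0.19. ASS1, with the largest fitted value in SEM-K2, was under the floor on all SEM-K2 arrays, so no change is given. Of 13 methionine and glutathione genes 12 were tested, with 7 below 0 in each line (medians -0.07 and -0.04), led by ETHE1 at 0.37 in SEM-K2 and MTRR at -0.54 in RS4:11. None of the genes in these 4 lists was called with obatoclax at 3xEC50 in limma.

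The regulators of the ATF4 pathway had opposite medians in the lines. Of 20 listed 18 were tested, with 6 below 0 in SEM-K2 and 14 in RS4:11 at 3xEC50 (medians 0.36 and -0.17). PPP1R15A, the phosphatase subunit that reverses eIF2 alpha phosphorylation, rose in SEM-K2 (1.51 ± 0.25, SE, adjusted p = 0.0312 in limma) and was at 0.34 in RS4:11, and the difference between the lines was not called (adjusted p = 0.976). The PPP1R15A call held in 10 of 21 alternatives, with adjusted p between 0.0114 and 0.577 in limma. It was lost with only the groups of the contrast fitted (0.577, where no gene was called), with no filter on low values (0.114), and without SEM-K2 3xEC50 replicate 2 (0.210), SEM-K2 3xEC50 replicate 1 (0.0592) or SEM-K2 vehicle replicate 2 (0.148). It was also lost without either array of the SEM-K2 EC50, RS4:11 3xEC50 or RS4:11 EC50 group (0.0595 to 0.0641). SESN2, a stress-induced sestrin, was the largest in RS4:11, at -1.40, and was not called. It lay near the floor there, at 5.45 and 6.63 with vehicle and 4.18 and 5.09 at 3xEC50. In SEM-K2 it was at -0.47 (-0.02 without SEM-K2 3xEC50 replicate 2, which read 3.98, under the floor). ATF4 itself was at -0.18 in SEM-K2 (-0.07 without that array) and -0.36 in RS4:11, neither called.

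Amino acid transporters and aminoacyl-tRNA synthetases, other known ATF4 targets, were mostly below 0 in RS4:11. Of 10 transporters 9 were tested, with 6 below 0 in SEM-K2 and 8 in RS4:11 (medians -0.16 and -0.35). SLC7A11, the cystine transporter, was the largest in both lines, at -0.54 in SEM-K2 and -2.05 ± 0.52 in RS4:11 (SE, adjusted p = 0.549 in limma). In RS4:11 SLC7A11 lay near the floor at 3xEC50, at 4.70 and 5.71, against 6.88 and 7.63 with vehicle. Of 17 synthetases 15 were tested, with 12 below 0 in SEM-K2 and 15 in RS4:11 (medians -0.12 and -0.54). The SEM-K2 count was 15 without SEM-K2 3xEC50 replicate 2 and 4 without replicate 1. The largest were VARS1 at -0.54 in SEM-K2 and WARS1 at -1.08 in RS4:11. No gene of either list was called at 3xEC50, and 10 of the 15 synthetases in RS4:11, and 4.9% of all genes, had an unadjusted p under 0.05 in limma. These lists, too, were drawn up with earlier results known.

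**Figure D5:**
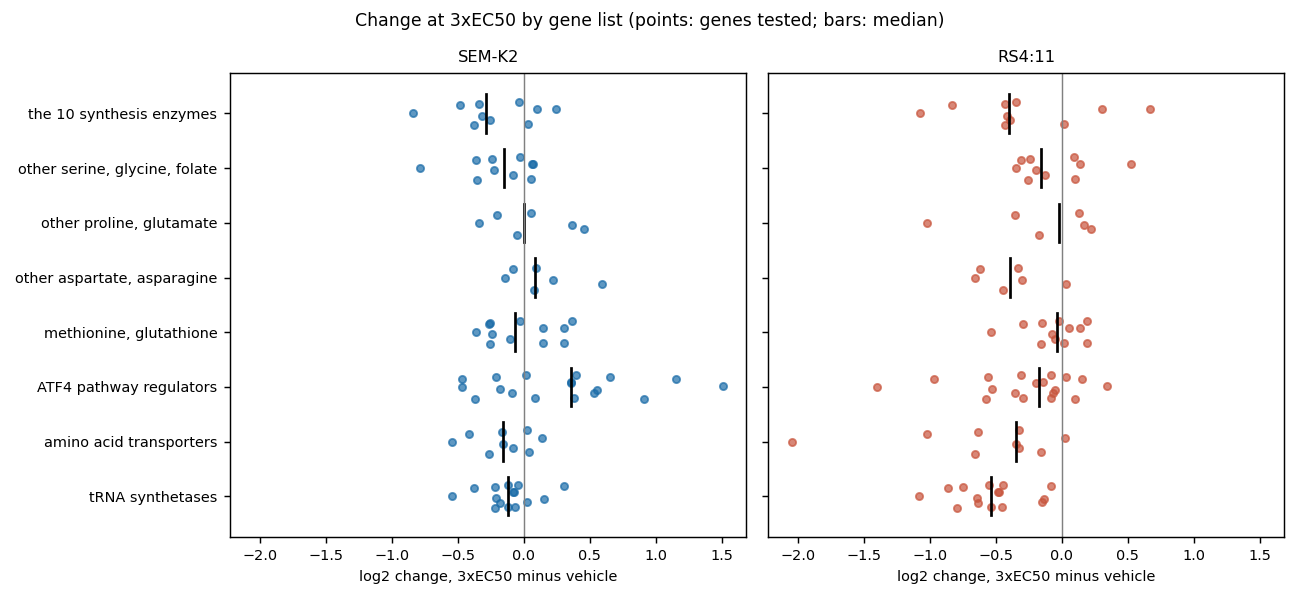
Log2 change at 3xEC50 (3xEC50 minus vehicle) of every tested gene of each list (points) with the list's median (bars), SEM-K2 on the left and RS4:11 on the right. The median of the 10 synthesis enzymes is -0.29 in SEM-K2 and -0.40 in RS4:11, and that of the tRNA synthetases -0.12 and -0.54.

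With vehicle, 14 of the 75 pathway neighbours tested were called between the lines, 18.7% against the 19.6% of all genes, so nothing is read from the count. ASS1 and OAT passed the filter only through the line where they are high, so the sign of each was built into its being tested. ASS1, which makes argininosuccinate from citrulline and aspartate, averaged 2.51 in SEM-K2, under the floor, and 10.07 in RS4:11, at least 67.2-fold lower in SEM-K2. OAT, the ornithine aminotransferase that links ornithine to the proline intermediate, averaged 6.48 in SEM-K2 and 3.08 in RS4:11, under the floor, at least 5.56-fold higher in SEM-K2. MTHFD2L and the serine carrier SFXN1 were higher in SEM-K2, by 1.65 and 0.79 (log2). Also called and lower in SEM-K2 were PYCR3 (-0.97), the serine and alanine transporter SLC1A4 (-1.33), the folate carrier SLC25A32 (-0.55) and the transcription factor ATF5 (-1.001). The other calls were GCLC, the catalytic subunit of glutathione synthesis (0.97), and SQOR, a sulfide oxidase (1.07), both higher in SEM-K2. Lower in SEM-K2 were ASL (-0.73), which follows ASS1 in the pathway, the lipoprotein receptor VLDLR (-1.68) and the synthetases AARS1 (-0.99) and YARS1 (-0.60). The calls of ATF5, SLC25A32 and YARS1 held in 8 of 20, 9 of 20 and 6 of 21 alternatives. Those of SQOR, ASL and AARS1 held in 16, 18 and 19 of 21, and those of GCLC and MTHFD2L in 20 of 21. The MTHFD2L difference fell as low as 0.19 over the alternatives. The remaining calls held in every alternative.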

How the data were processed

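RNA of 12 cultures (2 lines, 3 treatments, 2 replicates each) was hybridised to single-colour Affymetrix arrays. The deposited values are on a log2 scale: the authors made them with GCRMA, per the submitters' processing notes, version not given, and the scale was read from their range of 0.64 to 16.2. By design GCRMA corrects background and quantile-normalises arrays, so a shift shared by all genes is removed. No 2 arrays held identical values. Depth does not apply to arrays, whose number limits the precision here. The members and all gene lists were chosen with earlier results of these data known.

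Of 54675 probe sets, 41097 carry 1 gene symbol in GEO's platform annotation, 1801 carry several and 11777 are not listed. Symbols were updated through Entrez IDs for 41043. Per gene, the probe set with the highest mean was kept (19775 genes), and 10561 genes above 4 (log2) on at least 2 arrays were tested with limma 3.58.1 (R 4.3.3): 6 group means, all 12 arrays sharing the estimate of spread, eBayes, two-sided, Benjamini-Hochberg within each of 9 contrasts, called at an adjusted p under 0.05. The fit was tested on simulated data. The labels call the replicates biologic and say no more, so p-values rest on the variation among these cultures, which may be technical. Named genes are the 10 members, the largest change of each list per line at 3xEC50, every list gene called (markers included), and the 8 genes most like the mean of the members. ATF4, and a named gene's value in the other line, were added after values were seen. Folds against a group under the floor use the floor of 4 and are bounds. A total of 21 alternatives were run: a replicate block, overall or within each line, leaving out each array, no floor or a floor of 6, averaging all probe sets per gene, no _x_at or _s_at probe sets, trend and robust eBayes, the groups of the contrast alone, and median centring.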

Additional observations from a re-analysis of the deposited data

How the results depend on the processing

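None of the 10 enzymes was called with obatoclax, between doses or in the difference of responses under any of the 21 alternatives, and with obatoclax the lowest adjusted p was that of PSAT1 at 3xEC50 with the replicate block within each line, 0.0774 in SEM-K2 and 0.0843 in RS4:11 (limma). Over all alternatives PSAT1 in RS4:11 at 3xEC50 ranged from -1.33 to -0.82 and PYCR1 from -0.86 to -0.81. Estimates changed sign without a call in 1 to 11 of 205 gene and setting combinations per contrast. Each group has 2 arrays, and a group reduced to 1 array was assumed to vary like the others.

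Leaving out 1 array at a time, the median log2 change of the 10 ranged from -0.45 to -0.32 in RS4:11 at 3xEC50, from -0.44 to -0.24 in RS4:11 at EC50, from -0.31 to -0.17 in SEM-K2 at 3xEC50, from -0.07 to 0.06 in SEM-K2 at EC50, from -0.08 to 0.06 between doses in RS4:11 and from -0.23 to 0.03 between doses in SEM-K2. The median difference of responses ranged from 0.14 without SEM-K2 3xEC50 replicate 2 to 0.48 without replicate 1 at 3xEC50, and from 0.22 to 0.44 at EC50. It was 0.45 at 3xEC50 with a floor of 6, where CBS drops out, and 0.11 without _x_at and _s_at probe sets, where 7 genes remain. The median vehicle difference ranged from 0.0159 without RS4:11 vehicle replicate 2 to 0.45 without replicate 1.

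The number of the 10 called between the vehicle groups ranged from 3 to 5 with 1 array left out, and was 2 without _x_at and _s_at probe sets, since PYCR1 has only an _s_at probe set and the only other ASNS probe set is below the floor. PSPH was called there without either RS4:11 EC50 array (adjusted p = 0.0361 in limma) and without RS4:11 vehicle replicate 1 (0.0350). SHMT2 was called with all probe sets of a gene averaged (adjusted p = 0.0251), trend and robust (0.0394) and median centring (0.0492). The cause was not tested. The counts without CBS, and the counts and values of the pathway lists without a SEM-K2 3xEC50 array, were chosen after seeing the data.

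With the replicate block, PSPH was called between the vehicle groups (adjusted p = 0.0175, and 0.00633 with the block within each line, in limma), and no other call among the 10 changed. The block gave 220 genes called in SEM-K2 at 3xEC50 (299 within each line) against 87, 46 in SEM-K2 at EC50 (70) against 18, and 0 in RS4:11 at both doses. Same-numbered arrays shared deviations from their group means with r between 0.35 and 0.60 within a line (6 pairs of groups) and 0.19 and 0.40 across lines (9 pairs). With 2 replicates the numbers are not taken to pair the samples.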
